A study of Mus musculus with 17 samples.

Results

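Transcripts of the growth hormone and insulin-like growth factor (IGF) axis were followed in adult mouse liver progenitor cells, in the cells these gave in culture, and in freshly isolated liver cells. The axis was taken as 10 genes (Ghr, Igf1, Igfals, Igf1r, Igfbp1, Igfbp2, Igfbp3, Igfbp4, Igfbp5 and Igfbp7), found by the gene name that the array files attach to each probe. They are 10 of the 25977 genes tested, and 16 of the 39429 probes on the array carry their names. All 16 probes passed the filter on dim signals, so no member was left out. Each of 17 samples was hybridised to a single-colour Agilent mouse array.

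The samples formed 5 groups. Progenitor cells differentiated in vitro towards hepatocytes (n = 4) are called the hepatocyte condition here, and those differentiated towards cholangiocytes (n = 3), the epithelial cells of bile ducts, the cholangiocyte condition. The other groups were primary hepatocytes (n = 4), primary cholangiocytes (n = 2, numbered 3 and 4 in the labels) and undifferentiated adult hepatic progenitor cells (n = 4). Every sample carried the same strain label, Foxl1-CRE; RosaYFP: mice with Cre recombinase driven by Foxl1, a gene of a forkhead transcription factor, were crossed with mice whose Rosa26 locus holds a yellow fluorescent protein reporter, and the offspring were 6 to 10 weeks old. The labels give no culture times or factors for the conditions, and they do not say that arrays of a group came from separate animals or cultures, so a p-value weighs a difference only against the spread of these arrays, which may be technical.

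Growth hormone from the pituitary binds its receptor on hepatocytes and, through the kinase JAK2 and the transcription factor STAT5B, turns on the gene for IGF1, which the liver releases into the blood. There IGF1 travels mainly in a complex with IGFBP3 and the acid-labile subunit, the product of Igfals, while other IGF-binding proteins carry it, keep it from its receptor or present it locally. Adult hepatocytes are known to make much IGF1 and little of the IGF1 receptor, so that most of the hormone acts on other tissues.

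A level below is log2 of the ratio of a probe's intensity to the 75th percentile of its array, so that 0 stands for a probe as bright as that percentile, and a difference of 1 stands for a doubling. Levels of different probes are not set against each other. Differences are given with their standard errors from 1 limma fit of group means to all 17 arrays, and a gene was called (passed) where p, adjusted by Benjamini and Hochberg's method across the 25977 genes, was under 0.05. The 75th percentile of intensity was 543.7 to 983.1 on the primary hepatocyte arrays and 1741.0 to 2848.0 on the other 13 arrays, and arrays of the same group correlated at 0.947 to 0.983 over all genes. Defining genes matched the labels of the primary cells: the mean level of 10 hepatocyte markers was 7.71 to 8.09 on primary hepatocyte arrays, and that of 10 cholangiocyte markers was 1.11 and 0.95 on primary cholangiocyte arrays against -5.06 to -4.17 on primary hepatocyte arrays. In the hepatocyte condition the hepatocyte markers averaged 4.54, 0.23, 4.19 and -0.27 on arrays 1 to 4, against 1.06, 0.67, -1.11 and -4.45 in undifferentiated cells, so the 4 arrays of that condition were not alike. The cholangiocyte markers averaged -1.49 to -1.001 in the cholangiocyte condition, against -1.20 to -0.94 in undifferentiated cells, and 0 of the 10 passed, beside 1.38% of all genes. Against primary cholangiocytes 2 of these 10 were higher and 4 lower in the cholangiocyte condition, beside 12% and 7.61% of all genes. The differences ran from -9.83 for Muc1, a mucin of epithelial surfaces, to 4.26 for Spp1, which encodes osteopontin. Endothelial markers were higher on the primary hepatocyte arrays (means of -2.17 to -1.48, with 12 of 12 above background) than on the others (-5.40 to -3.98). The mean level of leukocyte and Kupffer cell markers was higher there too (-2.65 to -1.90 against -5.75 to -4.28). Log2 of their summed signal was not, at 3.58 to 4.05 on primary hepatocyte arrays and 3.16 to 4.24 on the others. Of these markers, 9 were higher and 2 lower in primary hepatocytes than in undifferentiated cells, beside 37.6% and 26.6% of all genes. Over 12 markers of stellate and other mesenchymal cells the means were -5.04 to -3.71 on primary hepatocyte arrays and -6.37 to -4.28 on the others. Of these 12, 8 were higher and 1 lower in primary hepatocytes than in undifferentiated cells, beside 37.6% and 26.6% of all genes. The 1 was Vim, the gene of vimentin, named here after its values were seen. Log2 of the summed signal of the 12 was 0.55 to 1.90 on primary hepatocyte arrays and 5.38 to 6.37 on the cultured arrays. The part of these other cell types in the differences of primary hepatocytes below was not tested. In such bulk RNA, fewer cells of a type and less RNA per cell cannot be told apart.

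The array holds 5 probes for Igf1, and they are shown because the size of the Igf1 difference depends on which of them is read. Each probe is 60 bases long, and its first 30 bases follow in the order in which the probes lie along the gene, with the bases that 2 overlapping probes share in capitals.
A_55_P2085979: aaccattaaaaacatgccaccaagaccttc
A_55_P2085984: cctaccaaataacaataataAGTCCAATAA
A_55_P2031631: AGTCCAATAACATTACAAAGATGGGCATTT
A_55_P2031636: agaaatgtaaatggaataagaggtcagctg
A_55_P2085974: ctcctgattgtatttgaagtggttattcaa
By the positions in the array files, whose genome build those files do not name, the probes lie on the forward strand of chromosome 10. The second starts 15105 bases after the first, and the remaining 3 follow at steps of 20, 2343 and 3657 bases. A_55_P2085984 and A_55_P2031631 share 40 bases, so they are close to 1 measurement.

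The promoters of Igfbp1 and Igfals were read because these genes are textbook targets of insulin and of growth hormone, and both differed between primary hepatocytes and undifferentiated cells. In liver, the repression of Igfbp1 by insulin runs through forkhead factors at an insulin response element, and Igfals is switched on by growth hormone through STAT5. The sequences are from RefSeq (GRCm38.p6), 250 bases before the listed start, forward strand, with matches to TNTTTTG, the core of the insulin response element, in capitals for Igfbp1 (chr11:7197537-7197786), and matches to TTCNNNGAA, the STAT5 consensus, in capitals for Igfals (chr17:24877981-24878230).
Igfbp1: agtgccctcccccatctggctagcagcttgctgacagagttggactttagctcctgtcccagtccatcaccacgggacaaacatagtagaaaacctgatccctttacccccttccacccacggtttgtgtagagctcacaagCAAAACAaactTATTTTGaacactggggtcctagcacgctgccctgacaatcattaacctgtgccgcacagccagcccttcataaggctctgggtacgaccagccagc
Igfals: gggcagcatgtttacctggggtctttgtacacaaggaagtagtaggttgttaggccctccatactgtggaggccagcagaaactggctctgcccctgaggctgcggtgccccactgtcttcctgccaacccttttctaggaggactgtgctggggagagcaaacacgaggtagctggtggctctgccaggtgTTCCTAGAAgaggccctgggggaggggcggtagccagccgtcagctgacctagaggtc
Both strands were searched. The Igfbp1 window held CAAAACA at 108 bases and TATTTTG at 97 bases before the start, which do not overlap, and a TNTTTTG match stands in 16.89% of the 32851 RefSeq mouse promoters of that length. The printed Igfals window held TTCCTAGAA at 58 bases before the start, and the window of another listed start of the gene held TTCTCAGAA at 236 bases. A TTCNNNGAA match stands in 7.02% of all promoters. All 10 genes had a promoter in the table, 14 in all, and among them neither letter pattern occurred at a gene other than these. A match describes the letters only, and the arrays carry no measurement of binding.

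Primary hepatocytes stood apart from the other groups in most members, whereas neither culture condition passed against undifferentiated cells in any member. In the hepatocyte condition against undifferentiated cells, 0 of 10 members passed, while 15.3% of all genes did, and with limma no member had an unadjusted p under 0.05 (lowest 0.144), against 27.6% of all genes. In the cholangiocyte condition against undifferentiated cells, 0 of 10 passed, beside 1.38% of all genes (358 genes, or 222 with the replicate number as a block, which also gave 0 members), with no unadjusted p under 0.05 either (lowest 0.202, against 12.8% of all genes). Between the hepatocyte and the cholangiocyte condition 0 of 10 passed as well, beside 15.4% of all genes, and the lowest unadjusted p was 0.156, while 27.6% of all genes had one under 0.05. Adjusted p values of single members over these 3 comparisons ran from 0.361 to 0.997.

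Against primary hepatocytes, the hepatocyte condition differed in 8 of 10 members, 3 higher and 5 lower. The background was high: 59.7% of all genes passed in that comparison, 26% higher and 33.7% lower. The median difference of the members was -3.47, against -0.33 over all genes. Primary hepatocytes against undifferentiated cells gave 10 of 10, 7 higher and 3 lower, beside 64.2% of all genes (37.6% higher and 26.6% lower), with a median of 3.46 against 0.44. Primary hepatocytes against primary cholangiocytes also gave 10 of 10, 7 higher and 3 lower, beside 49.6% of all genes (27.9% higher and 21.7% lower). These 3 comparisons share the primary hepatocyte arrays, so their calls are not independent. The cholangiocyte condition against primary cholangiocytes gave 2 of 10, 1 higher and 1 lower, beside 19.6% of all genes (12% higher and 7.61% lower), a share close to that of the background. Primary cholangiocytes against undifferentiated cells gave 3 of 10, 1 higher and 2 lower, beside 19% of all genes (8.5% higher and 10.5% lower). The gap between cultured and primary cells differed between the hepatocyte and the cholangiocyte lineage for 8 of 10, beside 37.7% of all genes.

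**Figure D1:**
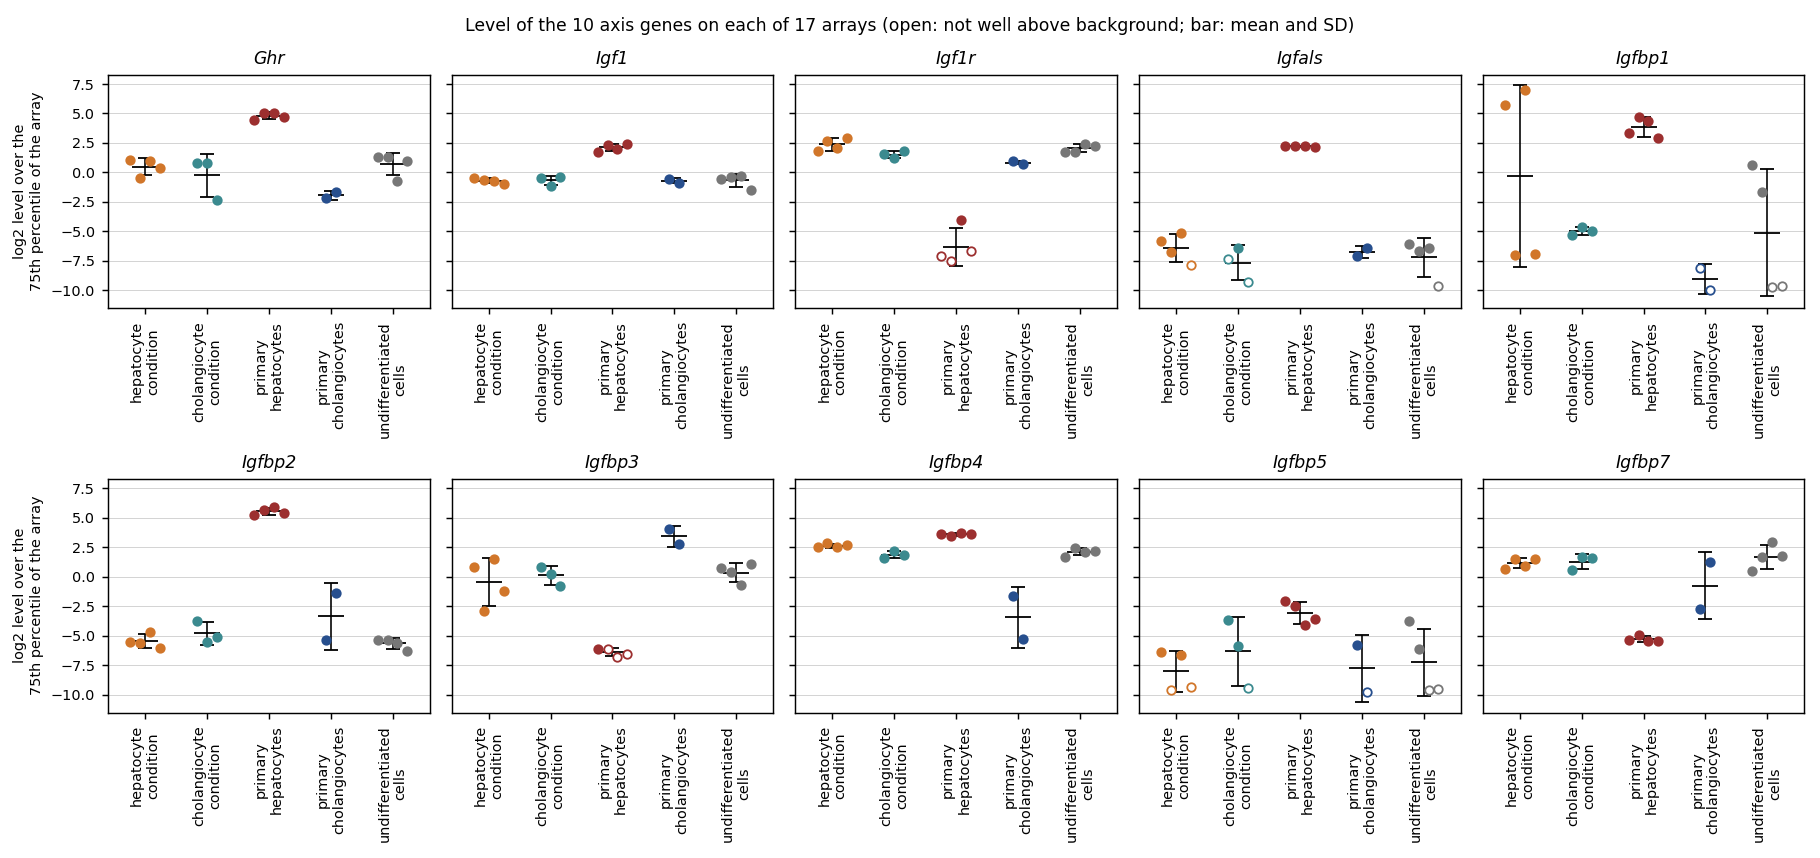
Levels of the 10 members on the 17 arrays, as log2 of intensity over the array's 75th percentile, by group, with a point for each array, bars for the group mean and SD, and open points for signals not well above background. Igf1, Igfals and Igfbp2 stood high on the primary hepatocyte arrays and low on all others, Igf1r and Igfbp7 stood low there, and Igfbp1 split the arrays of the hepatocyte condition.

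Ghr, which encodes the receptor for growth hormone, was lower in every cultured group than in primary hepatocytes, and lowest in primary cholangiocytes. Its levels were 1.08, -0.49, 1.01 and 0.39 in the hepatocyte condition, against 4.48, 5.03, 5.04 and 4.73 in primary hepatocytes. In the cholangiocyte condition the levels were 0.82, 0.84 and -2.35, primary cholangiocytes had -2.21 and -1.65, and undifferentiated cells had 1.30, 1.28, -0.70 and 0.93. Primary hepatocytes did not overlap with any other group, whereas both conditions overlapped with undifferentiated cells, and 1 array of the cholangiocyte condition lay below both primary cholangiocyte arrays. The difference of the hepatocyte condition from primary hepatocytes was -4.32 ± 0.65 (SE, adjusted p = 5.39e-05), and that of primary hepatocytes from undifferentiated cells was 4.12 ± 0.65 (adjusted p = 7.19e-05). Primary cholangiocytes were lower than undifferentiated cells by -2.63 ± 0.79 (adjusted p = 0.0322), a call that was lost without undifferentiated array 1 (0.0695), 2 (0.0698) or 4 (0.0624) or primary cholangiocyte array 3 (0.178) or 4 (0.0784). The difference of the cholangiocyte condition from primary cholangiocytes was 1.70 ± 0.84 (adjusted p = 0.188), and it passed without cholangiocyte condition array 3 (0.00867). A second probe of Ghr gave -5.23 ± 0.53 for the hepatocyte condition against primary hepatocytes.

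Igf1, the hormone itself, was highest in primary hepatocytes, and both conditions lay among the undifferentiated cells. On A_55_P2085979, which has the highest mean of the 5 probes and stands for the gene, the levels were -0.45, -0.61, -0.72 and -1.02 in the hepatocyte condition and -0.49, -1.14 and -0.40 in the cholangiocyte condition. Primary hepatocytes had 1.76, 2.33, 2.01 and 2.39, primary cholangiocytes -0.53 and -0.86, and undifferentiated cells -0.52, -0.40, -0.32 and -1.46. The 4 groups other than primary hepatocytes overlapped throughout. The hepatocyte condition was lower than primary hepatocytes by -2.82 ± 0.26 (adjusted p = 5.50e-07), and primary hepatocytes were higher than primary cholangiocytes by 2.82 ± 0.32 (adjusted p = 5.55e-06). Against undifferentiated cells the hepatocyte condition differed by -0.02 ± 0.26 (95% interval -0.59 to 0.54) and the cholangiocyte condition by 0.00 ± 0.28 (95% interval -0.61 to 0.61), so that on this probe a change of the size seen in primary hepatocytes lay outside both intervals.

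The other 4 Igf1 probes gave the same order for primary hepatocytes but a far wider range, 8.35 to 14.5 over the 17 arrays against 3.86 on the probe that stands for the gene. On A_55_P2085984 the levels were -0.74, -5.64, -0.07 and -4.28 in the hepatocyte condition, against 6.37, 6.28, 6.43 and 6.45 in primary hepatocytes. Arrays of the cholangiocyte condition had -1.69, -2.09 and -5.52, primary cholangiocytes -7.64 (not well above background) and -6.58, and undifferentiated cells -0.15, -0.73, -1.33 and -2.35. On this probe arrays 2 and 4 of the hepatocyte condition fell below every undifferentiated array, while arrays 1 and 3 lay among them or above. All 5 probes passed for the hepatocyte condition against primary hepatocytes, with differences of -9.55 to -2.82, and all 5 for primary hepatocytes against undifferentiated cells, with 2.80 to 8.11. None of the 5 passed for the hepatocyte condition against undifferentiated cells (-1.60 to -0.02, lowest adjusted p = 0.383). Primary cholangiocytes were below undifferentiated cells on 3 of the 5 probes, by -5.97 on A_55_P2085984 (adjusted p = 0.00693) and by at least 14.7-fold on A_55_P2085974, which was not well above background on either primary cholangiocyte array (adjusted p = 0.00764). On the probe that stands for the gene that difference was -0.02 (adjusted p = 0.981).

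**Figure D2:**
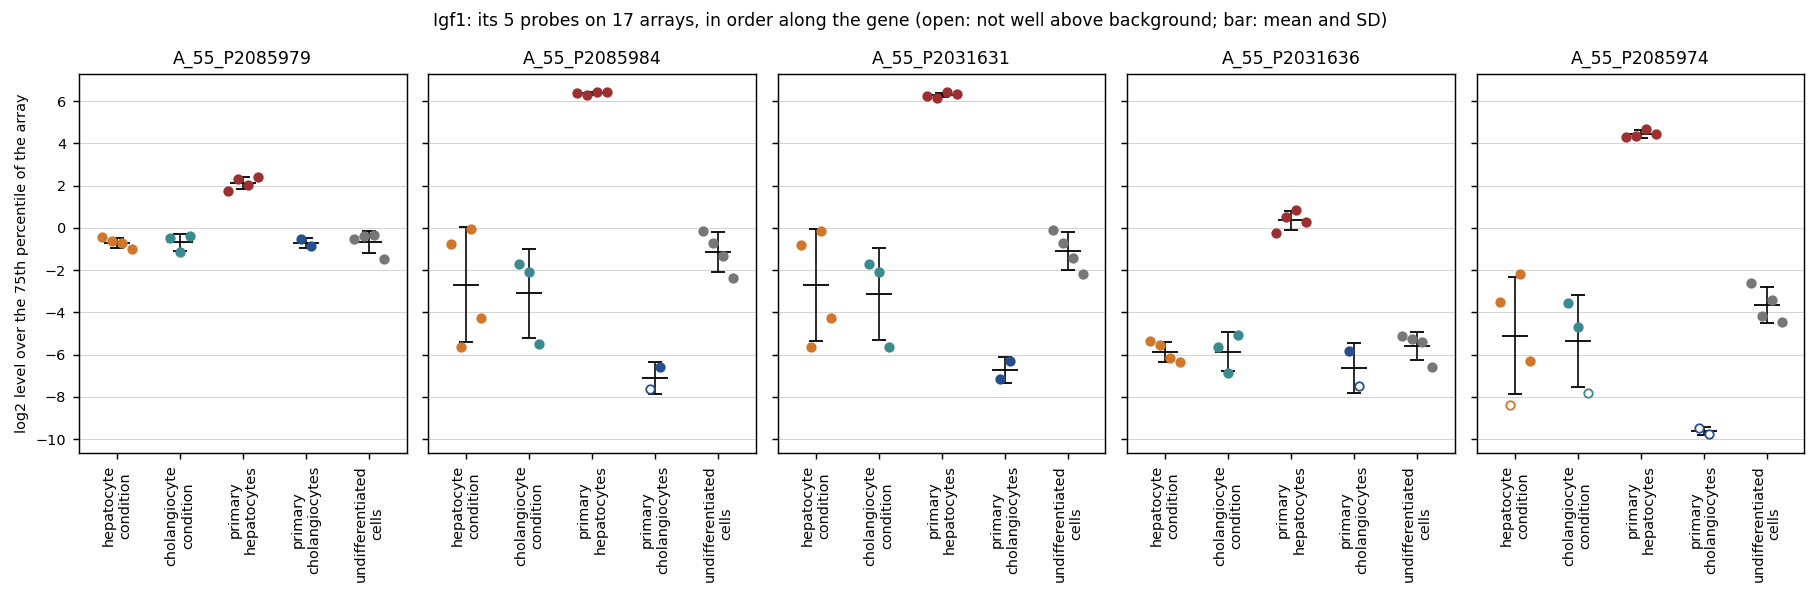
Levels of the 5 Igf1 probes on the 17 arrays by group, as log2 of intensity over the array's 75th percentile, with bars for the group mean and SD and open points for signals not well above background. Primary hepatocytes were highest on every probe, the probe that stands for the gene spanned 3.86 and the others 8.35 to 14.5, and arrays 2 and 4 of the hepatocyte condition were far below arrays 1 and 3 on 3 of the probes.

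Igfals encodes the acid-labile subunit, which holds IGF1 and its binding protein in the long-lived complex of the blood. Its levels were -5.81, -6.73, -5.18 and -7.87 in the hepatocyte condition, against 2.23, 2.20, 2.26 and 2.19 in primary hepatocytes. The cholangiocyte condition had -7.34, -6.37 and -9.30, primary cholangiocytes -7.09 and -6.41, and undifferentiated cells -6.09, -6.66, -6.41 and -9.66. Array 4 of the hepatocyte condition, arrays 1 and 3 of the cholangiocyte condition and array 4 of the undifferentiated cells were not well above background. Its level in the hepatocyte condition was lower than in primary hepatocytes by -8.62 ± 0.79 (adjusted p = 4.54e-07), and primary hepatocytes were higher than undifferentiated cells by 9.42 ± 0.79 (adjusted p = 1.43e-07). Against undifferentiated cells the hepatocyte condition differed by 0.81 ± 0.79 (adjusted p = 0.582, 95% interval -0.89 to 2.50).

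Igf1r, the receptor for IGF1 on the cell surface, ran the other way. Its levels were 1.79, 2.66, 2.11 and 2.93 in the hepatocyte condition, against -7.12, -7.53, -4.00 and -6.69 in primary hepatocytes, of which only the third was well above background. In the cholangiocyte condition the levels were 1.53, 1.22 and 1.79, primary cholangiocytes 0.93 and 0.74, and undifferentiated cells 1.78, 1.75, 2.45 and 2.27. Every array of the other groups was above the brightest of these, and those groups lay within 0.74 to 2.93. The hepatocyte condition was higher than primary hepatocytes by 8.71 ± 0.58 (adjusted p = 1.64e-08), primary hepatocytes were lower than undifferentiated cells by -8.40 ± 0.58 (adjusted p = 1.89e-08), and they were lower than primary cholangiocytes by -7.17 ± 0.71 (adjusted p = 1.31e-06). As most primary hepatocyte arrays were not well above background, these sizes are uncertain. Over the alternatives described below, the first ran from 5.44 to 9.49. Against undifferentiated cells, primary cholangiocytes differed by -1.23 (adjusted p = 0.268), and this passed without primary hepatocyte array 3 (0.0238), the array of that group on which the receptor was detected. The same difference passed with normexp background correction (-1.15, adjusted p = 0.0223) and in the authors' deposited table (-1.18, false discovery rate 3.98%).

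Igfbp2, a binding protein that liver secretes, showed the largest difference of any member between the hepatocyte condition and primary hepatocytes. Its levels were -5.50, -5.66, -4.66 and -6.06 in the hepatocyte condition, against 5.24, 5.62, 5.88 and 5.40 in primary hepatocytes. Arrays of the cholangiocyte condition had -3.73, -5.55 and -5.12, primary cholangiocytes -5.35 and -1.34, and undifferentiated cells -5.33, -5.40, -5.61 and -6.28. Its level in the hepatocyte condition was lower than in primary hepatocytes by -11.00 ± 0.66 (adjusted p = 5.39e-09) and differed from undifferentiated cells by 0.18 ± 0.66 (adjusted p = 0.906). Primary hepatocytes were higher than undifferentiated cells by 11.19 ± 0.66 (adjusted p = 3.66e-09). The primary cholangiocyte arrays lay far apart. Their difference from undifferentiated cells was 2.31 ± 0.80 (adjusted p = 0.0600), and it passed without primary cholangiocyte array 3 (4.31, 0.000560), as did the difference of the cholangiocyte condition from them (-3.46, 0.00301). A second probe of Igfbp2, well above background on 9 of 17 arrays, gave -13.54 ± 1.60 for the hepatocyte condition against primary hepatocytes.

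Igfbp3 encodes the main carrier of IGF1 in blood, which in rat liver is known to come from cells other than hepatocytes. It was low in primary hepatocytes and highest in primary cholangiocytes. Its levels were 0.84, -2.94, 1.53 and -1.17 in the hepatocyte condition and 0.87, 0.24 and -0.76 in the cholangiocyte condition. Primary hepatocytes had -6.14, -6.11, -6.81 and -6.52, with only the first well above background, primary cholangiocytes 4.06 and 2.82, and undifferentiated cells 0.72, 0.40, -0.74 and 1.04. Both primary groups stood apart from all cultured arrays, in opposite directions. The hepatocyte condition was higher than primary hepatocytes by 5.96 ± 0.78 (adjusted p = 1.50e-05), and primary hepatocytes were lower than primary cholangiocytes by -9.83 ± 0.95 (adjusted p = 1.12e-06). The cholangiocyte condition was lower than primary cholangiocytes by -3.32 ± 1.005 (adjusted p = 0.0324), and primary cholangiocytes were higher than undifferentiated cells by 3.08 ± 0.95 (adjusted p = 0.0365). Both of these calls rested on single arrays: the first was lost without cholangiocyte condition array 2 (0.0665) or 3 (0.0934) or primary cholangiocyte array 3 (0.200) or 4 (0.0529), and the other without undifferentiated array 1 (0.0515), 2 (0.0609) or 3 (0.0800) or primary cholangiocyte array 3 (0.237) or 4 (0.0591).

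Igfbp4, a binding protein that mostly inhibits IGF action, was the member whose cultured arrays came closest to primary hepatocytes. Its levels were 2.53, 2.87, 2.51 and 2.66 in the hepatocyte condition, against 3.60, 3.44, 3.73 and 3.60 in primary hepatocytes. The cholangiocyte condition had 1.56, 2.15 and 1.84, against -1.60 and -5.28 in primary cholangiocytes, and undifferentiated cells had 1.71, 2.42, 2.14 and 2.22. It was the 1 member whose hepatocyte condition arrays did not overlap with undifferentiated cells, beside 21% of all genes, and the 1 that did not overlap between the conditions, beside 27.8%. The difference of the hepatocyte condition from primary hepatocytes was -0.95 ± 0.52 (adjusted p = 0.132), that from undifferentiated cells 0.52 ± 0.52 (adjusted p = 0.594), and that from the cholangiocyte condition 0.79 ± 0.56 (adjusted p = 0.419). The spread behind these values is shared by all groups and includes the 2 primary cholangiocyte arrays, which lay 3.67 apart: without array 3 or without array 4 of that group, the hepatocyte condition was lower than primary hepatocytes (-0.95, 0.000463) and higher than the cholangiocyte condition (0.79, 0.0124). The cholangiocyte condition was higher than primary cholangiocytes by 5.29 ± 0.67 (adjusted p = 0.000116, but 0.0775 with only the groups compared in the fit), primary cholangiocytes were lower than undifferentiated cells by -5.56 ± 0.64 (adjusted p = 4.41e-05), and primary hepatocytes were higher than primary cholangiocytes by 7.03 ± 0.64 (adjusted p = 6.11e-07). Primary hepatocytes were higher than undifferentiated cells by 1.47 ± 0.52 (adjusted p = 0.0240), a call lost without undifferentiated array 1 (0.0608), with scaling to the median (1.02, adjusted p = 0.111) and with quantile normalization (1.18, adjusted p = 0.0623).

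Igfbp1, the binding protein that fasting raises and insulin lowers, split the cultured arrays. Its levels were 5.70, -7.00, 7.01 and -6.88 in the hepatocyte condition, against 3.33, 4.70, 4.36 and 2.94 in primary hepatocytes. In the cholangiocyte condition the levels were -5.33, -4.60 and -4.95, primary cholangiocytes -8.14 and -9.94, both not well above background, and undifferentiated cells 0.60, -1.64, -9.72 and -9.62, the last 2 not well above background. Arrays 1 and 3 of the hepatocyte condition exceeded every primary hepatocyte array, and arrays 2 and 4 were below every array of the cholangiocyte condition. The mean of the hepatocyte condition was -0.29 ± 7.69 (SD, n = 4), and that of undifferentiated cells -5.10 ± 5.36 (SD, n = 4). Their difference, 4.81 ± 3.11 (SE), had a 95% interval of -1.86 to 11.47 (adjusted p = 0.361), and that of the hepatocyte condition from primary hepatocytes was -4.12 ± 3.11 (adjusted p = 0.266). Alb, the gene of albumin, moved on the same arrays: its levels were 7.63, -4.75, 7.58 and -3.65 in the hepatocyte condition, against 6.00, 1.26, -4.44 and -8.74 in undifferentiated cells. Within slides the hepatocyte condition minus undifferentiated cells gave -5.36 and -7.47 on slides 1 and 3. On slide 5 the array of the hepatocyte condition had 5.70 and the undifferentiated array was not well above background, so the direction differed between slides.

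Primary hepatocytes held at least 2644-fold more Igfbp1 than primary cholangiocytes (adjusted p = 0.0118), in which it was not well above background. They were higher than undifferentiated cells by 8.93 ± 3.11 (adjusted p = 0.0215). The first call was lost without primary cholangiocyte array 4 (0.0768), and the other without undifferentiated array 3 (0.0665) or 4 (0.0688).

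**Figure D3:**
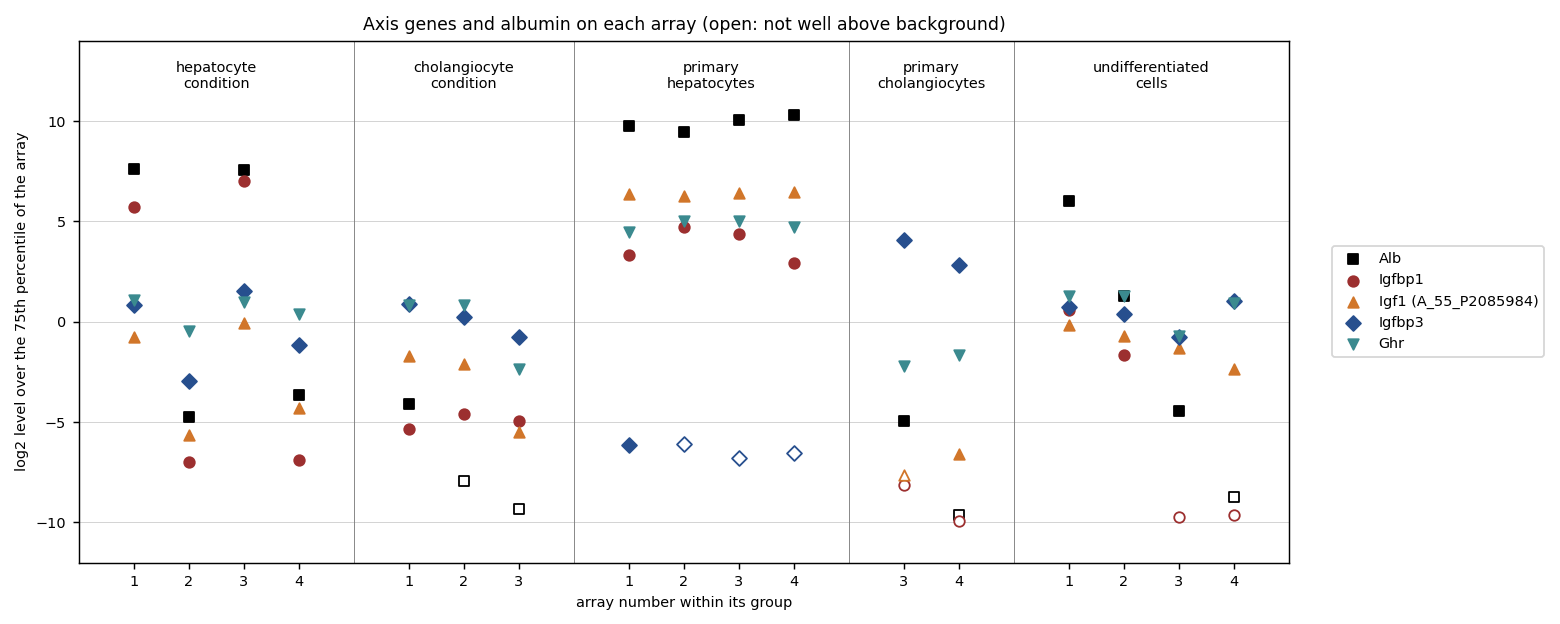
Levels of Alb, the gene of albumin (squares), Igfbp1 (circles), the Igf1 probe A_55_P2085984 (triangles), Igfbp3 (diamonds) and Ghr (inverted triangles) on each array, as log2 of intensity over the array's 75th percentile, with a panel for each group, the array's number on the x axis and open symbols for signals not well above background. Albumin on arrays 1 and 3 of the hepatocyte condition was 7.63 and 7.58 with Igfbp1 at 5.70 and 7.01, and on arrays 2 and 4 it was -4.75 and -3.65 with Igfbp1 at -7.00 and -6.88.

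Igfbp5 encodes a binding protein that attaches to extracellular matrix. It was near background on many arrays: levels were -6.41, -9.64, -6.62 and -9.36 in the hepatocyte condition, against -2.07, -2.50, -4.10 and -3.58 in primary hepatocytes. Arrays of the cholangiocyte condition had -3.68, -5.87 and -9.44, primary cholangiocytes -5.76 and -9.79, and undifferentiated cells -3.77, -6.10, -9.58 and -9.55. Values below -9 in this gene were all not well above background. Its level in the hepatocyte condition was lower than in primary hepatocytes by -4.95 ± 1.48 (adjusted p = 0.0105), and these groups did not overlap. Primary hepatocytes were higher than undifferentiated cells by 4.19 ± 1.48 (adjusted p = 0.0234), although 1 undifferentiated array lay among them, and higher than primary cholangiocytes by 4.71 ± 1.82 (adjusted p = 0.0438). The call against undifferentiated cells was lost without undifferentiated array 3 (0.0729) or 4 (0.0757) or primary hepatocyte array 1 (0.0585) or 2 (0.0525). That against primary cholangiocytes was lost without any of 6 arrays: undifferentiated 2 (0.0505), cholangiocyte condition 2 (0.0531), primary hepatocyte 1 (0.0850), 2 (0.0790) or 4 (0.0596), and primary cholangiocyte 4 (0.354).

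Igfbp7 encodes a secreted protein that binds IGF only weakly and is known as a product of endothelial and mesenchymal cells. Its levels were 0.66, 1.54, 0.88 and 1.49 in the hepatocyte condition, against -5.38, -4.95, -5.43 and -5.43 in primary hepatocytes. The cholangiocyte condition had 0.55, 1.66 and 1.59, primary cholangiocytes -2.74 and 1.25, and undifferentiated cells 0.48, 1.65, 2.98 and 1.75. Primary hepatocytes lay below every other array. The summed signal of the mesenchymal markers was also lower there than on cultured arrays. Yet 8 of those 12 markers were higher in primary hepatocytes than in undifferentiated cells, and 1, Vim, was lower. On primary cholangiocyte arrays 3 and 4 log2 of that sum was 0.38 and 3.21. The summed signal of the endothelial markers was higher in primary hepatocytes (log2 of 3.66 to 3.89, and 0.99 to 2.15 on the other arrays). The part of these markers in the Igfbp7 values was not tested. The hepatocyte condition was higher than primary hepatocytes by 6.44 ± 0.68 (adjusted p = 1.94e-06), and primary hepatocytes were lower than undifferentiated cells by -7.01 ± 0.68 (adjusted p = 6.54e-07) and than primary cholangiocytes by -4.55 ± 0.83 (adjusted p = 0.000412). The difference of primary cholangiocytes from undifferentiated cells was -2.46 ± 0.83 (adjusted p = 0.0541). It passed without undifferentiated array 1 (0.0330) or primary cholangiocyte array 4 (-4.46, 0.000652), and without the same primary cholangiocyte array the cholangiocyte condition passed against them too (4.01, 0.00198).

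**Figure D4:**
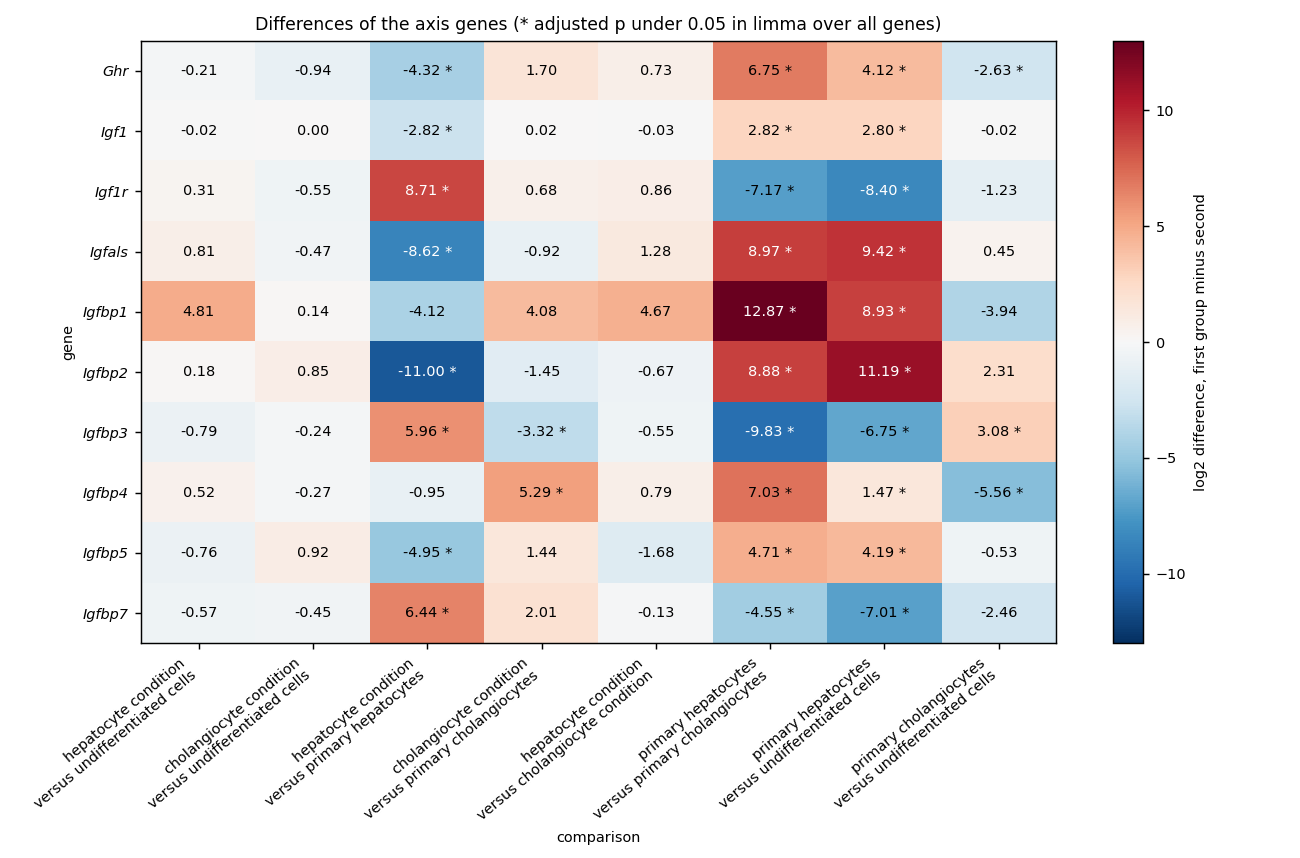
Log2 differences of the 10 members (down) in 8 comparisons (across), each the first-named group minus the second, printed in its cell with a star where the adjusted p was under 0.05, and coloured red for higher and blue for lower. For the hepatocyte condition against primary hepatocytes they ran from -11.00 for Igfbp2 to 8.71 for Igf1r, and no cell has a star for either condition against undifferentiated cells.

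Ordered by group means, Ghr, Igf1, Igfals, Igfbp1, Igfbp2, Igfbp4 and Igfbp5 were highest in primary hepatocytes. For Ghr, Igf1, Igfals and Igfbp2 the step from primary hepatocytes to the next group passed, and no later step in the order did. For Igfbp1, Igfbp4 and Igfbp5 the first step did not pass (adjusted p = 0.266, 0.132 and 0.0963), and the last step of Igfbp4, from the cholangiocyte condition to primary cholangiocytes, did. Igf1r and Igfbp7 had primary hepatocytes last, with the step to primary cholangiocytes above them as the only one that passed. Igfbp3 ran from primary cholangiocytes at the top to primary hepatocytes at the bottom, and its first and last steps passed.

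The slides held arrays of several groups, which allows differences within a slide. Within slides 1, 3 and 4 the hepatocyte condition minus primary hepatocytes kept the pooled direction for 9 of the members, for example -2.94, -3.41 and -2.48 for Igf1 and -11.28, -11.46 and -9.90 for Igfbp2. Igfbp1 gave -11.69, -9.81 and 3.68 there. For primary hepatocytes minus undifferentiated cells, Igfbp4 gave 1.01, 1.51 and 1.89 within slides 1, 2 and 3, and Igfbp5 gave 3.59 and 0.19 within slides 1 and 3. On slide 2 the undifferentiated array was not well above background in Igfbp5. Slide 4 alone held the cholangiocyte condition and primary cholangiocytes together, and there the difference was 7.43 for Igfbp4 and -2.58 for Igfbp3. Primary cholangiocytes and undifferentiated cells shared only slide 3, with differences of -3.51 for Ghr, 3.34 for Igfbp3 and -3.31 for Igfbp4.

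Of 15 genes of growth hormone signalling other than the receptor, 9 rose in the hepatocyte condition against undifferentiated cells and 0 fell, where 7.63% of all genes rose and 7.66% fell. Inhibitors of the SOCS family were among those that rose, and the median difference was 0.997, against 0.08 over all genes. Socs3, an inhibitor that several cytokines also induce, had 5.34, 5.79, 5.90 and 5.54 in the hepatocyte condition, against 1.81, 1.37, 1.49 and 1.23 in undifferentiated cells. It was alike on all 4 arrays of the condition, including those with low albumin, and the difference was 4.17 ± 0.39 (adjusted p = 1.64e-05). Socs1 rose by 2.88 (adjusted p = 0.000887). Cish, a target of STAT5 that inhibits it, was higher by 1.69 (adjusted p = 0.0367), a call that 7 of the 17 fits with 1 array left out did not keep. Socs2 (0.42) and Prlr, the prolactin receptor (0.41), did not pass. In the cholangiocyte condition 0 of the 15 passed against undifferentiated cells, where only 1.38% of all genes did. Between the conditions 9 were higher in the hepatocyte condition and 0 lower (6.99% and 8.45% of all genes), Socs3 by 4.18 (adjusted p = 3.09e-05).

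Set against primary hepatocytes, 8 of these 15 genes were higher in the hepatocyte condition and 4 lower, beside 26% and 33.7% of all genes. Socs1 was higher by 5.46, Socs3 by 4.04, Socs2 by 2.97 and Jak2, the kinase bound to the receptor, by 2.55. Prlr was lower by -5.41 ± 0.44 and Stat5b by -0.98. In primary hepatocytes against undifferentiated cells 8 were higher and 4 lower, beside 37.6% and 26.6%. Prlr rose by 5.81 and Stat5b by 1.63, while Socs1 fell by 2.58, Socs2 fell by 2.55 and Jak2 fell by 1.75.

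Of 19 genes of IGF and insulin signalling, 5 were higher and 1 lower in the hepatocyte condition than in undifferentiated cells. Of all genes, 7.63% were higher and 7.66% lower. The median difference of the 19 was 0.31, against 0.08 over all genes. Igf2, the fetal growth factor of the family, had -2.75, -4.55, -2.30 and -4.21 in the hepatocyte condition, against -7.32, -6.94, -6.77 and -8.53 in undifferentiated cells. These groups did not overlap, and the difference was 3.94 ± 0.68 (adjusted p = 0.00169). Primary hepatocytes had -7.82, -5.33, -7.18 and -5.34, so that Igf2 was also higher in the hepatocyte condition than there, by 2.96 ± 0.68 (adjusted p = 0.00193). That comparison lost its call with normexp background correction. Foxo1, the forkhead factor that insulin keeps out of the nucleus, was higher by 1.25 (adjusted p = 0.00167), and Insr, the insulin receptor, by 1.07 (adjusted p = 0.0160, lost without hepatocyte condition array 3). Grb14, an inhibitor of the insulin receptor, fell by 0.81 (adjusted p = 0.00647).

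In primary hepatocytes against undifferentiated cells, 6 of the 19 were higher and 3 lower, shares no larger than those of all genes (37.6% and 26.6%). Insr rose by 2.58, Grb14 by 1.82, Pik3r1, a regulatory subunit of phosphoinositide 3-kinase, by 1.64, and Foxo1 by 1.39. The kinase gene Akt1 fell by 1.68 and Irs2, an adaptor of both receptors, fell by 1.22. In primary cholangiocytes against undifferentiated cells 1 was higher and 4 lower, beside 8.5% and 10.5% of all genes. The adaptor gene Irs1 fell by 3.36 there (adjusted p = 0.00557), which was lost without primary cholangiocyte array 3.

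Another list held 10 genes for further IGF-binding proteins, their proteases and inhibitors, and proteins that bind Igf2 mRNA. Of these, 0 were higher and 1 lower in the hepatocyte condition than in undifferentiated cells, beside 7.63% and 7.66% of all genes. The lower gene was Igf2bp1, which fell by 1.66 (adjusted p = 0.0369), a call that 7 of the 17 fits with 1 array left out did not keep. Primary hepatocytes differed from undifferentiated cells in 9, 3 higher and 6 lower (37.6% and 26.6% of all genes), with a median of -3.19, or -2.27 with genes below background put at their bounds. Htra1, a protease that can cleave IGF-binding proteins, fell by 8.25, Igf2bp2 fell by 6.71, and Igf2bp1 was at least 186-fold lower. Stc1 and Stc2 encode stanniocalcins, inhibitors of the protease that cleaves IGFBP4: Stc1 rose by 3.05, and Stc2 was at least 18.5-fold lower. Igfbpl1, a gene related to the binding proteins, had 0.56 and 3.29 in primary cholangiocytes and was not well above background on any of the other 15 arrays. It was at least 674-fold higher in primary cholangiocytes than in undifferentiated cells (adjusted p = 7.94e-09).

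Genes of liver known to depend on growth hormone, listed without regard to the direction of that dependence, were higher in the hepatocyte condition in part. Of 12 listed, 11 were tested, and 6 were higher than in undifferentiated cells and 0 lower, beside 7.63% and 7.66% of all genes. These 11 had a median difference of 3.21, against 0.08 over all genes. That median became 2.27 once bounds replaced the levels of undetected genes. Cyp2d10, a cytochrome P450, had 4.12, 2.56, 4.98 and 0.28 in the hepatocyte condition, against -0.45, -2.05, -6.03 and -7.51 in undifferentiated cells. The groups did not overlap, and the difference was 7.00 (adjusted p = 0.00382). Onecut1, a liver transcription factor, was higher by 5.02 (adjusted p = 0.000951) and the cytochrome P450 Cyp4a12a by 4.88 (adjusted p = 0.00625). Serpina3k, a plasma serine protease inhibitor, had 5.97, -1.50, 6.45 and -4.88, against -5.40, -2.44, -6.53 and -9.61 in undifferentiated cells. Its difference of 7.50 (adjusted p = 0.0273) was lost without hepatocyte condition array 1 or 3 or undifferentiated array 3 or 4. Of the 10 hepatocyte markers, 1 was higher and 0 lower in the same comparison, with a median difference of 3.30, and their part in the values of this list was not tested.

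Against primary hepatocytes, 8 of the 11 were lower in the hepatocyte condition and 0 higher, beside 33.7% and 26% of all genes. Elovl3, a fatty acid elongase, lay between 2.49 and 3.64 on primary hepatocyte arrays, and Hsd3b5, a steroid dehydrogenase, between 6.13 and 7.11, and neither was well above background on any of the other 13 arrays. The hepatocyte condition was at least 1391-fold lower than primary hepatocytes in Elovl3 and at least 16720-fold lower in Hsd3b5. Mup20, a major urinary protein, was lower by -14.52 and Cyp7b1, a steroid hydroxylase, by -12.69. Primary hepatocytes were higher than undifferentiated cells in 10 of the 11, beside 37.6% of all genes.

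**Figure D5:**
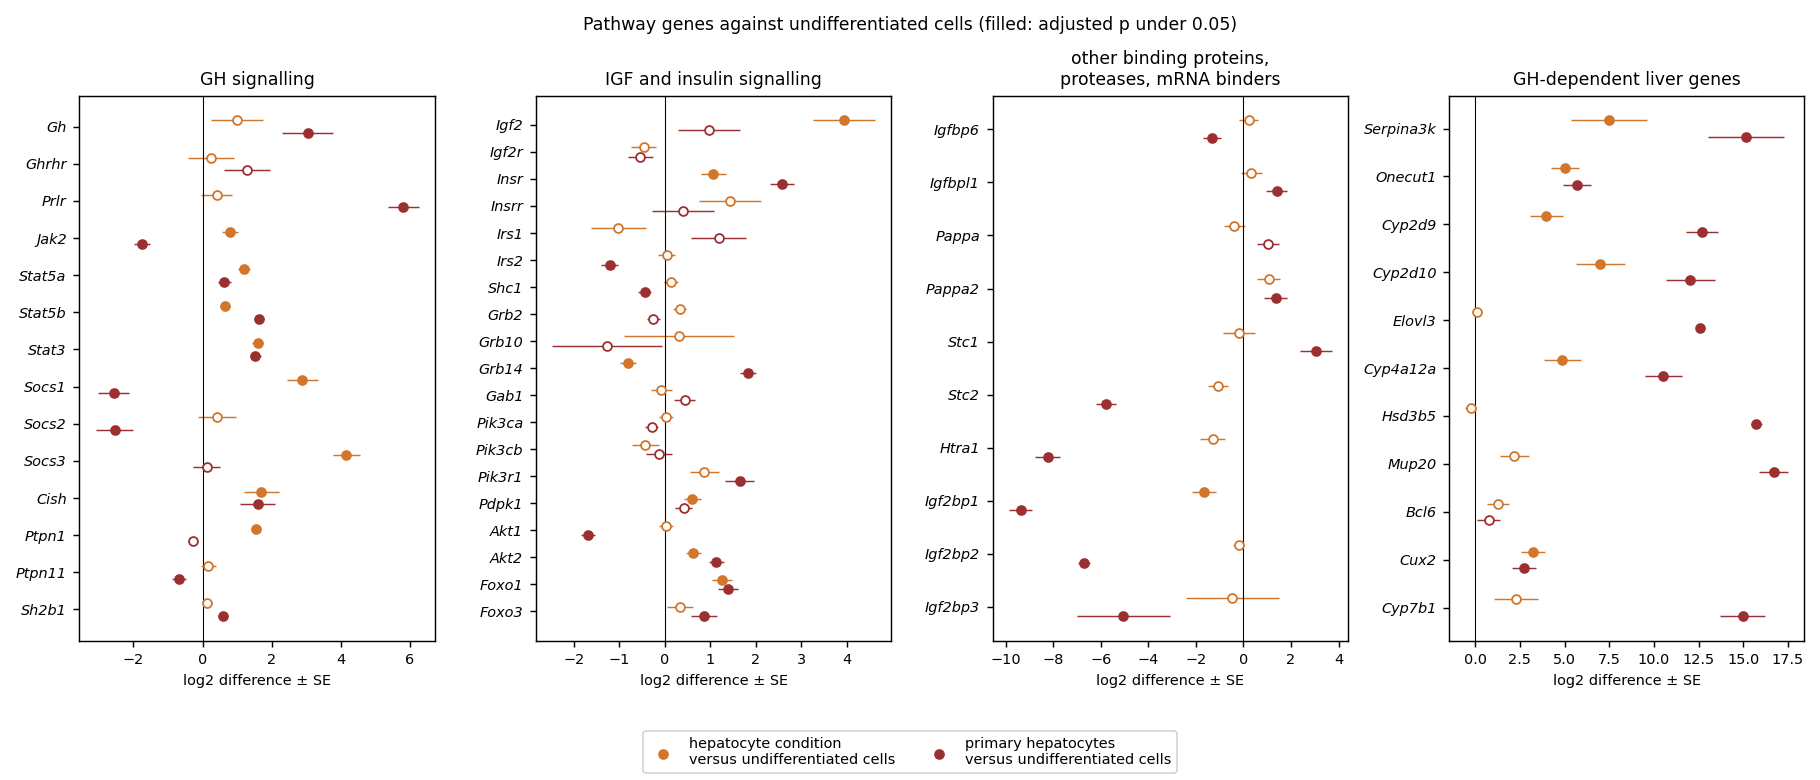
Log2 differences of the genes of 4 lists (growth hormone signalling, IGF and insulin signalling, other IGF-binding proteins and their handling, growth hormone-dependent liver genes) in the hepatocyte condition against undifferentiated cells and in primary hepatocytes against undifferentiated cells, with a point for each gene shown, bars for the standard error and filled points for adjusted p under 0.05. In the hepatocyte condition against undifferentiated cells the growth hormone signalling list lay between 0.13 and 4.17, and the growth hormone-dependent list between -0.25 and 7.50.

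Over the 17 arrays the members fell into opposed sets, which describes the contrast of primary hepatocytes with the rest more than variation within groups. Pearson's r was 0.95 between Igfals and Igf1, -0.95 between Igf1 and Igf1r, and -0.96 between Igf1r and Igfbp2. After removal of group means, r was 0.73 between Igfbp1 and Igfbp3, which are neighbouring genes on chromosome 11 and had r = -0.50 over the arrays as they stand. Igfbp2 and Igfbp5, neighbours on chromosome 1, are another such pair, with r = 0.66 over the arrays and -0.01 within groups. Some pairs on different chromosomes came near the 0.73: within groups, r was 0.68 between Igfbp1 and Igfbp5 and 0.64 between Igfbp3 and Igfbp5. Igfbp2 and Igfbp4 had r = -0.88 within groups. The 2 primary cholangiocyte arrays weigh heavily in that value, with Igfbp2 at -5.35 and -1.34 and Igfbp4 at -1.60 and -5.28. An r without them was not computed. All these values share the arrays and their scaling.

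By the same measure, the gene nearest to each member over the 17 arrays was Pcmtd1 for Ghr (0.973), Pitpnm1 for Igf1r (0.983), Rdh9, a retinol dehydrogenase, for Igfals (0.988), Cecr2 for Igfbp2 (0.991) and Ttc12 for Igfbp7 (0.981). Apob, the main protein of lipoproteins from liver, was nearest to Igfbp4 (0.952), Apoc2, another apolipoprotein, to Igfbp1 (0.941), and Ddc, an amino acid decarboxylase, to Igfbp5 (0.891). LOC100045701 was nearest to Igfbp3 (0.960). The Igfbp1 and Apoc2 values kept r = 0.915 after removal of group means. For Igf1 the nearest gene depended on the probe: it was Krt31, a hair keratin, for the probe that stands for the gene (0.993), and Rcl1 (0.988), Rcl1 (0.986), Ugt3a2 (0.994) and Pfkfb1 (0.988) for A_55_P2085984, A_55_P2031631, A_55_P2031636 and A_55_P2085974. The values for the single Igf1 probes were computed after their levels had been seen.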

How the data were processed

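RNA was amplified and labelled with Cy3 before hybridisation to single-colour Agilent arrays, per the labels' protocols. The deposited scanner files hold spot intensity from Feature Extraction, version 10.5.1.1 per the file headers and 9.53 per the submitters' processing notes. In the deposited table of comparisons the authors gave a score, the fold change between group means with a minus sign where the second group was higher, beside a false discovery rate in percent. This table, with normalization and test not given in the sources used here, served only as an alternative.

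Each array had 44397 spots, of which 1377 control spots were left out. The processed intensity, already background-subtracted and corrected by the scanner software per the file headers, was divided by the array's 75th percentile and taken to log2, and spots of a probe were averaged. Probes well above background on at least 2 of 17 arrays were kept (32305 of 39429), and 135 probes lacking a usable spot on an array were left out. The probe with the highest mean stood for a gene. Names came from RefSeq (GRCm38.p6) by accession for 26406 probes, by symbol for 3859 and by older symbol for 735, and 8429 kept the file's name. Group means were fitted by lmFit and eBayes of limma 3.58.1 (R 4.3.3), with two-sided tests and Benjamini-Hochberg adjustment over 25977 genes, after the steps were tested on simulated data. Besides the 8 comparisons, a difference of differences between the lineages was fitted. Where no array of a group had a gene well above background, the gene was put there at the array's dimmest signal well above background, or at its own if higher, and its fold is given as "at least". The number of arrays limits the precision.

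Alternatives were normexp background correction (offset 50), median and quantile scaling, no filter and a stricter one, the mean of a gene's probes and each probe on its own, slide as a fixed or random block, the replicate number as a block, only the groups compared, array weights, the authors' deposited values, and leaving out each array. Replicate numbers may pair the cholangiocyte condition with undifferentiated cells: deviations of same-numbered arrays from their group means correlated at 0.38, 0.28 and 0.32. Values for arrays of different numbers were not set beside these, so the pairing is not established. For the hepatocyte condition with undifferentiated cells these values were -0.03, -0.07, -0.15 and 0.52 for numbers 1 to 4, so number 4 alone stood out. In the other comparisons they ran from -0.23 to 0.14. Samples outside the first possible pairing were treated as sharing only a number. Members and lists (4 of pathway genes, 5 of cell markers) were chosen with earlier results of these data known. All 10 members were described in every comparison, and of each pathway list up to 4 genes that passed (the largest differences) and up to 2 others. Of the growth hormone signalling list, 1 gene is counted but not reported by name here, and it is not drawn.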

Additional observations from a re-analysis of the deposited data

Results flagged for a closer look

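In 2 of 30 sets of levels, each a member in a group of 4 arrays, the highest or lowest array stood far from the others, where chance gives about 5%. The set of Igfals in undifferentiated cells had array 4 at -9.66, not well above background, with the others at -6.66 to -6.09. Igfbp7 in primary hepatocytes was -4.95 on array 2, with the others at -5.43 to -5.38.

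The gap between cultured and primary cells differed between the lineages for 8 of 10 members, beside 37.7% of all genes, in the limma test of (hepatocyte condition minus primary hepatocytes) minus (cholangiocyte condition minus primary cholangiocytes). It was positive for Igf1r (8.03, adjusted p = 1.53e-05), Igfbp3 (9.28, adjusted p = 6.10e-05) and Igfbp7 (4.43, adjusted p = 0.00620). It was negative for Igfbp2 (-9.55, adjusted p = 1.01e-05), Igfals (-7.70, adjusted p = 0.000328), Igfbp4 (-6.24, adjusted p = 6.10e-05), Ghr (-6.02, adjusted p = 0.000488) and Igf1 (-2.84, adjusted p = 0.000143). Igfbp5 (-6.39, adjusted p = 0.0513) and Igfbp1 (adjusted p = 0.218) did not pass, but Igfbp5 passed in 15 of 28 alternatives (adjusted p from 0.000878 to 0.234). The Igfbp7 call was lost in 1 of 28, with normexp (2.31, adjusted p = 0.0522).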

How the results depend on the processing

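Over 14 alternatives that keep all arrays and 17 that leave out 1, no single member's called difference changed sign: of 2596 values for single genes, 2507 kept their side of the threshold, 47 lost it and 42 gained it. Counts of members called, out of 10, varied most for primary cholangiocytes, which have 2 arrays. Against undifferentiated cells that count was 3, but 5 with normexp and 1 with slide as a fixed block or with array weights. Igf1, not among the 3, passed in that comparison with the mean of its probes (-3.72, adjusted p = 0.00598). For the cholangiocyte condition against primary cholangiocytes the count was 2, but 1 with slide as a fixed block, the replicate block, only the groups compared or array weights. With only the groups compared that 1 was Igfbp1 (0.0374), and Igfbp3 (0.0657) and Igfbp4 (0.0775) were lost. For the hepatocyte against the cholangiocyte condition it was 0, but 1 in the authors' deposited table (Igfbp4). The cause was not tested. Leaving out each array gave 0 to 0 members for either condition against undifferentiated cells, 8 to 9 for the hepatocyte condition against primary hepatocytes, 1 to 2 for the cholangiocyte condition against primary cholangiocytes, 0 to 1 between the conditions, 8 to 10 for primary hepatocytes against either primary cholangiocytes or undifferentiated cells, 1 to 4 for primary cholangiocytes against undifferentiated cells, and 8 to 9 for the difference of differences.

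With the replicate block, Igfbp3 in the cholangiocyte condition against primary cholangiocytes (adjusted p = 0.0547), Igfbp5 in primary hepatocytes against primary cholangiocytes (0.0722), and Ghr (0.0749) and Igfbp3 (0.0552) in primary cholangiocytes against undifferentiated cells no longer passed, while Igfbp7 in the last comparison did (0.0498). The block changed no other member's call in the 8 comparisons. Of the 17 arrays, 5 correlated best with an array of their own number. Igfbp1 in primary hepatocytes against undifferentiated cells was lost with slide as a fixed block (0.0609). Igfbp4 in the hepatocyte condition against primary hepatocytes passed with normexp (-0.82, 0.0440), only the groups compared, array weights and the authors' deposited table. In that deposited table Igfbp1 passed in the same comparison too (-3.63, false discovery rate 1.78%). It also passed there for the cholangiocyte condition against primary cholangiocytes (3.27, false discovery rate 1.04%).

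All-gene counts moved more. The cholangiocyte condition against undifferentiated cells gave 358 genes, but 181 with slide as a fixed block, 222 with the replicate block, 104 with only the groups compared and 791 with array weights. Against primary cholangiocytes it gave 5089, but 1070 with only the groups compared and 2812 with array weights. Primary cholangiocytes against undifferentiated cells gave 4946, but 1626 and 2289 under those settings, and the difference of differences gave 9805, but 17010 with normexp. Scaling to the median moved the all-gene median of primary hepatocytes minus undifferentiated cells to 0.00, against 0.44, and that of the hepatocyte condition to -0.18, against 0.08. With it, the share of higher calls among genes called against undifferentiated cells was 28.7% for the hepatocyte condition (49.9% otherwise), 37.2% for the cholangiocyte condition (56.7%), 45.0% for primary hepatocytes (58.6%) and 32.9% for primary cholangiocytes (44.7%). With normexp that share was 27.7% for the hepatocyte condition against primary hepatocytes (43.6% otherwise), 71.7% for primary hepatocytes against undifferentiated cells and 74.98% against primary cholangiocytes (56.3%).

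Pathway list counts were rerun under the same alternatives, a choice made after seeing the data. In the hepatocyte condition against undifferentiated cells the 9 growth hormone signalling genes became 6 to 9, the 5 IGF and insulin signalling genes 2 to 5, and the 6 growth hormone-dependent genes 4 to 7. In primary hepatocytes against undifferentiated cells the signalling genes that rose were 5 to 9, against 8. Igf2 in the hepatocyte condition against undifferentiated cells was 1.53 with normexp, against 3.94.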

Other observations

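Of 19 genes of IGF and insulin signalling, 4 were higher and 1 lower in the cholangiocyte condition than in primary cholangiocytes, beside 12% and 7.61% of all genes. Irs1, which encodes an adaptor of the insulin and IGF1 receptors, had 0.44, 2.07 and 0.88 in the cholangiocyte condition, against -3.38 and -2.96 in primary cholangiocytes. The difference was 4.29 ± 0.77 (SE, adjusted p = 0.00161), and it passed under all 28 alternatives. Irs2, a related adaptor, was higher by 1.54 ± 0.25 (adjusted p = 0.000666), and Foxo1 was lower by -1.33 (adjusted p = 0.00445, lost without primary cholangiocyte array 3).

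Of the 10 genes for further binding proteins and their handling, 2 were higher and 2 lower in the same comparison, beside the same shares of all genes. Igf2bp1, an Igf2 mRNA-binding protein of fetal tissues, had 0.80, 0.74 and -0.75 in the cholangiocyte condition, against -9.12 (not well above background) and -6.30 in primary cholangiocytes. Stc2 was lower, with -2.05, -1.63 and -2.53, against 0.63 and 0.75 (difference -2.76 ± 0.54, adjusted p = 0.00288). Between the conditions, 9 of 15 growth hormone signalling genes were higher in the hepatocyte condition and 0 lower, beside 6.99% and 8.45% of all genes, and Stat3, a transcription factor of cytokine receptors, was among them (2.02 ± 0.18, adjusted p = 1.08e-05).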
